A study of Bos taurus and Ovis aries and Capra hircus with 18 samples.

Results

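Adult skeletal muscle of cattle was set against adult skeletal muscle of goat. The comparison takes 6 of the 18 libraries of the series, 3 from cattle (A, B and C) and 3 from goat (A, B and C), chosen by the species and tissue in their labels. The remaining libraries are brain of both species and muscle and brain of sheep, and they enter only where named. The labels describe every sample as frozen adult tissue whose polyadenylated RNA was captured with oligo(dT) beads and sheared. They give no breed, sex, age beyond adult, feeding state, time of day or name of the muscle, so none of these can be told apart from the species. Whether A, B and C are separate animals is not stated in the labels, and p-values measure only the spread between these libraries. Reads were counted over exons of each species' own gene models. Genes were therefore paired between cattle and goat by exon lengths and by gene order, which gave 15978 pairs out of 27607 cattle and 27271 goat genes, and each count was corrected by the exonic length (Length) of the gene in its species. Levels are RPKM (read counts scaled by gene length and by library size) on a scale common to both species. Genes whose Length differs by at most 1.2 times between the species are called genes of like Length. A log2 difference is cattle minus goat, with its standard error (SE). Coordinates are those of the cattle gene on ARS-UCD1.2.

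A skeletal muscle is a mixture of slow fibres, which burn fat and glucose in mitochondria, and fast fibres, which rely more on glycogen and glycolysis. Each fibre type carries its own myosin heavy and light chains, and the Z-disc anchors the thin filaments and senses stretch. When food is short or glucocorticoids are high, transcription factors of the FOXO family switch muscle towards fat burning through PDK4, which blocks pyruvate dehydrogenase, and towards protein breakdown through ubiquitin ligases such as FBXO32 (atrogin-1). Myostatin (MSTN) is the secreted brake on muscle mass. Between the fibres lie fat cells, fibroblasts, vessels, nerves and immune cells, whose RNA is part of a bulk library; fewer cells of a type and less RNA per cell cannot be told apart in such data.

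The cattle muscle libraries held 40878387 to 53560617 counts and the goat muscle libraries 23250777 to 25037038. Mitochondrially encoded genes took 9.67% to 10.6% of counts in cattle muscle and 1.5% to 3.16% in goat muscle. The tissue label fitted its markers: ACTA1 (skeletal actin) was at 51347, 50690 and 50299 RPKM in cattle A, B and C and at 27638, 20295 and 28258 in goat, and CKM (muscle creatine kinase) was at 7748, 7013 and 8085 against 7328, 7613 and 8122. All paired neuron markers together stood at no more than 1.78 RPKM in any cattle and 2.08 in any goat muscle library. Goat muscle C stood apart. Its Spearman correlation over genes with goat A and B was 0.930 and 0.918, against 0.988 between those 2 libraries, and cattle libraries correlated with it at 0.780 to 0.791 but with goat A and B at 0.841 to 0.853. Counts below are therefore also given without it where they move.

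Of 11886 paired genes with enough counts to test, 2084 (17.5%) were called higher in cattle muscle and 2380 (20%) higher in goat muscle, by edgeR's quasi-likelihood test at a Benjamini-Hochberg adjusted p below 0.05 and a difference of at least 2-fold. Cattle and goat libraries did not overlap for 2067 and 2337 of these genes. They also did not overlap for 7167 of all 11886 tested genes, so such separation was common. Scaling by library totals alone in place of TMM moved the median log2 difference of all genes from 0.005 to -0.264 and the share of calls that were higher in cattle from 46.7% to 33.1%, so the balance of the 2 directions rests on the scaling. The lengths of the gene models mattered too. The log2 difference fell as the cattle gene became longer than the goat gene (Spearman rho -0.285 across genes, which are not independent replicates), with a median of -0.26 where the cattle Length was more than 1.2 times the goat Length and 0.59 where the goat Length was more than 1.2 times the cattle Length. Among the 3231 tested genes with Length within 1.2 times, 544 (16.8%) were higher in cattle and 502 (15.5%) higher in goat. Those genes are described first, and below a Length ratio (cattle over goat) is printed wherever the lengths differ by more than 1.2 times. Leaving out the correction moves a log2 difference by about the log2 of its Length ratio, by construction, and the calls of named genes that this ends are given beside them. The part of Length in any single difference was not tested otherwise. The share of genes called also rose as the matching of pairs loosened. It was 34.2% among pairs of the first and strictest pass, 47.4% in the second and 53.6% in the third. The part of the pairing in this rise was not tested.

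**Figure D1:**
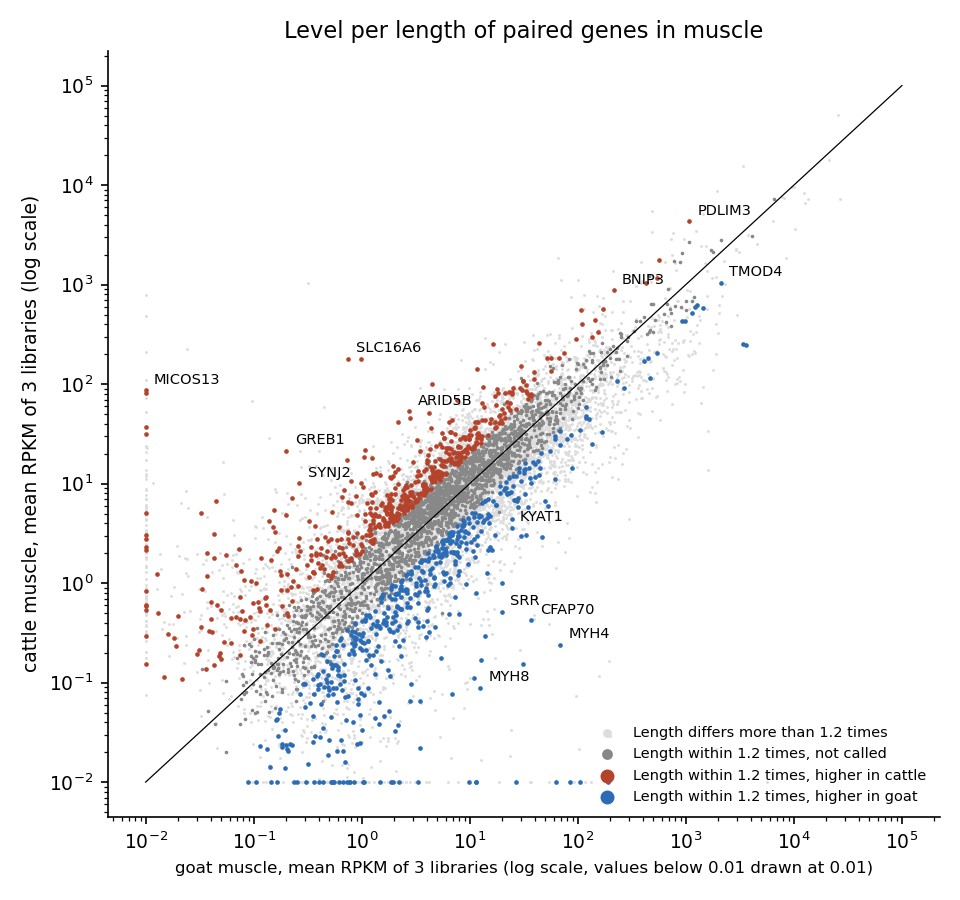
Mean level of each tested paired gene in goat muscle (x axis, RPKM, log scale) against cattle muscle (y axis, RPKM, log scale), 3 libraries a species, with values below 0.01 drawn at 0.01. Coloured points are genes with Length within 1.2 times called higher in cattle (544) or higher in goat (502), grey points are the other genes, and called genes lie on either side of the diagonal over most of the range of levels.

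Brain of the same species offers a second measurement with the same gene models. Some muscle genes are near the floor in brain, such as FBXO40 at 0.166 RPKM in cattle brain and 0.0621 in goat brain. For these the brain value and the interaction rest on few counts, and brain medians of muscle lists include such genes. The interaction of species with tissue compares the species difference in muscle with that in brain. Transcript forms used in only 1 tissue, or a neighbour expressed in only 1 tissue, were not tested. Of 13540 genes tested in the 12 cattle and goat libraries, 2825 (20.9%) passed the interaction in either direction at an adjusted p below 0.05. Among genes of like Length, 201 of 543 higher in cattle muscle (37.0%) and 211 of 502 higher in goat muscle (42.0%) passed it in the direction of muscle. The same call was made in brain for 143 (26.3%) and 155 (30.9%) of them. The calls and the interaction share the muscle libraries, so choosing called genes favours an interaction in the direction of muscle.

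The 9 genes of like Length reported here for the greatest fold in favour of cattle, among pairs of the first pass (the strictest match of exon lengths), included a carrier, signalling genes and a chromatin factor. SLC16A6, a member of the monocarboxylate transporter family (chr19:61867803-61877805), was at 114, 336 and 89.8 RPKM in cattle and 0.713, 1.01 and 0.499 in goat. The log2 difference was 7.92 ± 0.68 (adjusted p = 0.000152), against 2.53 in brain, and the interaction was 5.4 (adjusted p = 0.000128). GREB1, a gene known for its response to oestrogen (chr11:86232489-86365887), stood at 15.3, 18.1 and 30.9 RPKM in cattle and 0.170, 0.240 and 0.193 in goat, a log2 difference of 6.73 ± 0.38 (adjusted p = 4.53e-05). In brain the 2 species differed by 0.70 in the log2 of GREB1, and the interaction was 6.07.

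ARID5B, which encodes a DNA-binding chromatin regulator (chr28:17916578-18109450), was at 35.0, 49.4 and 76.6 RPKM in cattle muscle and 3.05, 2.60 and 2.65 in goat muscle, a log2 difference of 4.28 ± 0.34 (adjusted p = 0.000119) against 0.21 in brain. SYNJ2, a phosphoinositide phosphatase (chr9:94544473-94653549), reached 7.54 to 12.2 RPKM in cattle and 0.152 to 0.346 in goat, and RIN1, an effector of RAS (chr29:44382246-44389503), 3.29 to 6.84 against 0.0920 to 0.330. In these 3 genes every cattle library lay above every goat library, and the interaction was 4.10 for ARID5B, 4.39 for SYNJ2 and 4.07 for RIN1.

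The other 4 genes of this direction share exons with a neighbour in the goat gene models, where reads from overlapping genes may not be separable. MICOS13, a subunit of the complex that shapes mitochondrial cristae (chr7:18617143-18618572), had 3095 counts in cattle muscle and 0 in goat muscle, at least 788-fold higher with 3 counts over the goat group as the floor, but 100% of its goat exonic bases also lie in another gene, and it was as far apart in brain (log2 difference 12.05). PARP6 (chr10:19170936-19196490), of the poly(ADP-ribose) polymerase family, shares 88.8% of its goat exonic bases and differed by 4.16 in muscle and 4.48 in brain. MRRF, the mitochondrial ribosome recycling factor (chr11:93141363-93196372), shares 34.7% and differed by 4.31 in muscle and 2.56 in brain. Its interaction of 1.78 (adjusted p = 0.0236) missed the threshold without cattle brain B (adjusted p = 0.0517), goat brain C (0.0619) or cattle muscle C (0.0568). LGALS4, a galectin (chr18:48537130-48543918), shares 14% and differed by 4.26 in muscle and 3.64 in brain. Across all tested genes, 785 (6.6%) shared at least 10% of their exonic bases with another gene in either species, and 50.7% of these were called against 36.6% of the others.

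Among the 10 genes chosen in favour of goat by the same rule, which takes only first-pass pairs, were 2 developmental myosins. MYH8, the perinatal myosin heavy chain (chr19:29403330-29433093), was at 20.6, 0.941 and 16.2 RPKM in goat A, B and C and between 0.0804 and 0.1 in cattle, a log2 difference of -7.14 ± 1.10 (adjusted p = 0.00147). MYH3, the embryonic myosin heavy chain (chr19:29601526-29622481), was at 6.58, 2.97 and 1.61 RPKM in goat and 0.551, 0.432 and 0.128 in cattle, a log2 difference of -3.33 ± 0.66 (adjusted p = 0.00446). Goat B was by far the lowest goat library for MYH8, yet above all cattle libraries. These myosin genes lie side by side and are close copies of each other, so their counts are uncertain wherever reads were shared among them.

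CFAP70, a cilium-associated protein (chr28:29299964-29381034), was at 25.3, 25.3 and 61.1 RPKM in goat and 0.564, 0.511 and 0.192 in cattle, a log2 difference of -6.46 ± 0.58 (adjusted p = 0.000185) against -3.55 in brain. SRR, serine racemase (chr19:23279266-23297617), was at 16.5, 15.3 and 27.9 RPKM in goat and 0.667, 0.338 and 0.543 in cattle; 40.8% of its cattle exonic bases lie in another gene, and its log2 difference was -5.27 ± 0.40 in muscle and -2.04 in brain. KYAT1, the aminotransferase that turns kynurenine into kynurenic acid (chr11:99313258-99331831), stood at 23.2, 23.0 and 27.1 RPKM in goat and 2.53, 4.90 and 3.40 in cattle, a log2 difference of -2.76 ± 0.28 (adjusted p = 0.000299).

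GPC3, a glypican of the cell surface (chrX:17366350-17829036), was at 12.9, 11.0 and 22.4 RPKM in goat and 1.03, 3.38 and 2.42 in cattle, with a log2 difference of -2.75 ± 0.47 in muscle and -0.08 in brain. RAPGEF4, the cyclic AMP sensor EPAC2 (chr2:23607682-23937801), was at 4.43 to 8.33 RPKM against 0.881 to 1.32, with a log2 difference of -2.53 ± 0.31 in muscle and 0.28 in brain. ITGB1BP2 (melusin), a muscle partner of integrin beta 1 (chrX:79330685-79367501), was at 43.3 to 74.6 RPKM against 8.01 to 15.4, a log2 difference of -2.48 ± 0.32, and shares 36.5% of its goat exonic bases with another gene. COL11A2, a fibrillar collagen chain (chr23:7350323-7378810), differed by -3.19 ± 0.73 in muscle and -0.39 in brain, with an interaction of -2.78 (adjusted p = 0.0538) that passed the threshold without cattle muscle A (adjusted p = 0.00942), goat muscle B (0.0346) or goat brain B (0.0479). RFC4, a subunit of the clamp loader of DNA replication (chr1:80452885-80467441), differed by -2.56 ± 0.54 in muscle and -2.75 in brain.

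Of these genes, 6 of the 9 higher in cattle and 8 of the 10 higher in goat passed the interaction in the direction of muscle. The latter include ITGB1BP2, which averaged only 0.105 RPKM in cattle brain and 0.0777 in goat brain. All these genes were chosen by their difference in the same muscle libraries that enter the interaction. That choice favours the direction of muscle, so the counts are a description and not a separate test. In sheep muscle, placed on the same scale as a description only, 6 of the 9 genes higher in cattle were nearer the goat level and 3 nearer the cattle level, while the genes higher in goat were divided 5 and 5. The side was taken from the sheep mean on the log scale. Like Length was asked of cattle and goat only, and sheep gene models can differ. The Length of ARID5B is 4673 in sheep, 7442 in cattle and 7596 in goat. The part of sheep Length in the sheep levels given here and below was not tested. GREB1 averaged 1.35 RPKM in sheep muscle and SLC16A6 1.05, nearer goat, and ARID5B 19.3, nearer cattle. For ARID5B sheep A, B and C were at 6.72, 11.7 and 39.5 RPKM, and only sheep C was nearer cattle.

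**Figure D2:**
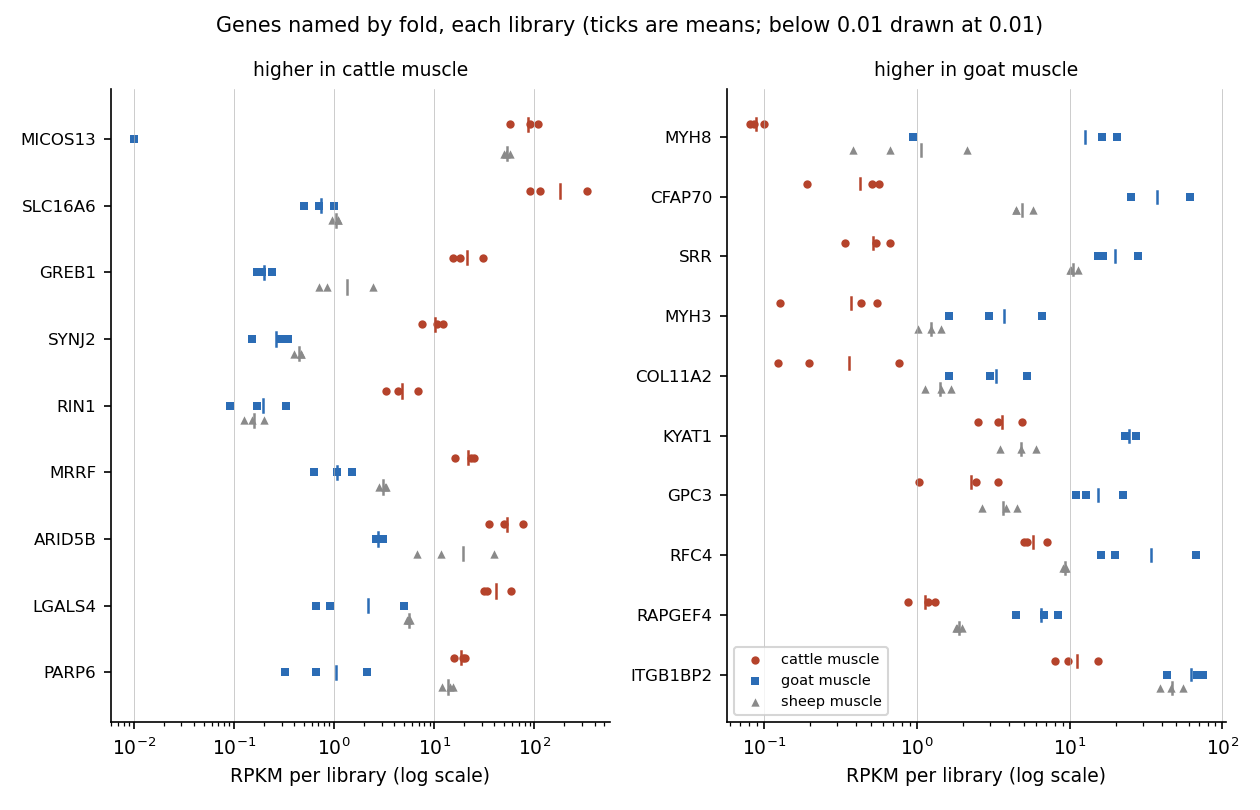
Level (x axis, RPKM per library, log scale) of the 9 reported genes of greatest fold in favour of cattle (left) and the 10 in favour of goat (right) among first-pass pairs of like Length, one point per muscle library of cattle, goat and sheep, with ticks for the means and values below 0.01 drawn at 0.01. For each gene the 3 cattle points and the 3 goat points do not overlap, which the rule that chose the genes required.

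Genes of the FOXO-driven breakdown of muscle protein and of autophagy stood higher in cattle muscle. Of 20 tested members, 10 were called higher in cattle and 2 higher in goat, with a median log2 difference of 1.34 in muscle and -0.09 in brain; 7 members passed the interaction towards cattle muscle and 0 the other way. Over all tested genes 17.5% were called higher in cattle and the median log2 difference was 0.005. Leaving out goat muscle C gave 11 and 2 calls. FOXO1 itself, the transcription factor at the head of the programme (Length ratio 0.543), was at 76.8, 61.9 and 56.4 RPKM in cattle and 3.83, 4.97 and 4.18 in goat, a log2 difference of 3.91 ± 0.24 (adjusted p = 6.27e-05) against 0.45 in brain. GADD45A, a stress gene linked to muscle wasting (Length ratio 0.591), was at 259, 318 and 296 RPKM in cattle against 9.64, 16.8 and 14.7 in goat. Its log2 difference was 4.41 ± 0.29 in muscle and 1.41 in brain, so it was higher in cattle in both tissues. FBXO32 (Length ratio 0.676, with 16.4% of its cattle exonic bases shared with another gene) was at 105, 187 and 213 RPKM in cattle and 13.7, 21.5 and 11.4 in goat, and differed by 3.44 ± 0.37 in muscle and -0.24 in brain. For these 3 genes the lowest cattle library lay above the highest goat library, and sheep muscle averaged 5.52 RPKM for FOXO1 and 11.9 for GADD45A but 105 for FBXO32.

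Of the 4 tested members of like Length, 3 were called higher in cattle and 1 higher in goat. BNIP3, a mitophagy receptor on the outer mitochondrial membrane, was at 766, 1064 and 797 RPKM in cattle and 177, 170.2 and 297 in goat, a log2 difference of 2.03 ± 0.30 (adjusted p = 0.0012) against 0.06 in brain. ULK1, the kinase that starts autophagy, was at 34.8, 47.8 and 42.0 RPKM against 10.3, 9.90 and 15.1, a log2 difference of 1.82 ± 0.25 (adjusted p = 0.00092). FBXO40, a muscle ubiquitin ligase chosen after its values were seen, was at 85.7, 65.8 and 88.0 against 28.0, 37.4 and 9.11, a log2 difference of 1.68 ± 0.46 (adjusted p = 0.0175). That call was lost without cattle A (adjusted p = 0.0706) or cattle C (0.056) and with library totals alone (0.0561). The member of like Length higher in goat was CTSL, a lysosomal protease, which was at most 1.16 RPKM in any library and rested on 14 counts in cattle and 97 in goat (log2 difference -3.27 ± 0.82, adjusted p = 0.0122).

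Also higher in goat, EIF4EBP1, the repressor of cap-dependent translation that mTOR phosphorylates (Length ratio 2.26), was at 259, 87.9 and 226 RPKM in cattle and 462, 499 and 947 in goat, a log2 difference of -1.74 ± 0.45 (adjusted p = 0.0144) that lost its call without length correction (-0.85, adjusted p = 0.139). TRIM63 (MuRF1), the second classic ubiquitin ligase of atrophy (Length ratio 1.61), overlapped between species at 171, 132 and 287 against 88.7, 90.6 and 184 RPKM, and was not called (log2 difference 0.70 ± 0.39, adjusted p = 0.175), although it was without goat C (1.14) or without length correction (1.10).

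Fuel genes differed one by one rather than as a list. Of 24 tested genes of fatty acid uptake and oxidation, 4 were called higher in cattle and 5 in goat (4 and 6 without goat C). These shares are near the 17.5% and 20% of all tested genes. PDK4 (Length ratio 0.727) was at 1549.8, 1717 and 2221 RPKM in cattle and 30.3, 74.4 and 92.6 in goat, a log2 difference of 4.80 ± 0.50 (adjusted p = 0.000309), and differed by 2.42 in brain. UCP3, a mitochondrial carrier of muscle induced by fatty acids (Length ratio 0.506), was at 713, 1407 and 1234 RPKM against 35.7, 56.4 and 119, a log2 difference of 3.99 ± 0.53 (adjusted p = 0.000803). MLYCD, malonyl-CoA decarboxylase, which lifts the block on fatty acid entry into mitochondria (Length ratio 0.435), was at 89.4, 55.7 and 61.8 against 6.35, 14.2 and 14.1. ECI1, an isomerase of unsaturated fatty acid oxidation (Length ratio 1.73), went the other way at 10.8, 8.60 and 11.4 RPKM in cattle and 52.4, 62.9 and 73.1 in goat, a log2 difference of -2.61 ± 0.22. GLUL, glutamine synthetase (Length ratio 0.618), chosen after its values were seen, was at 906, 910.5 and 1486 RPKM in cattle and 49.1, 51.6 and 202 in goat, a log2 difference of 3.45 ± 0.62 (adjusted p = 0.00291). In PDK4, UCP3, MLYCD and GLUL all cattle libraries were above all goat libraries.

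**Figure D3:**
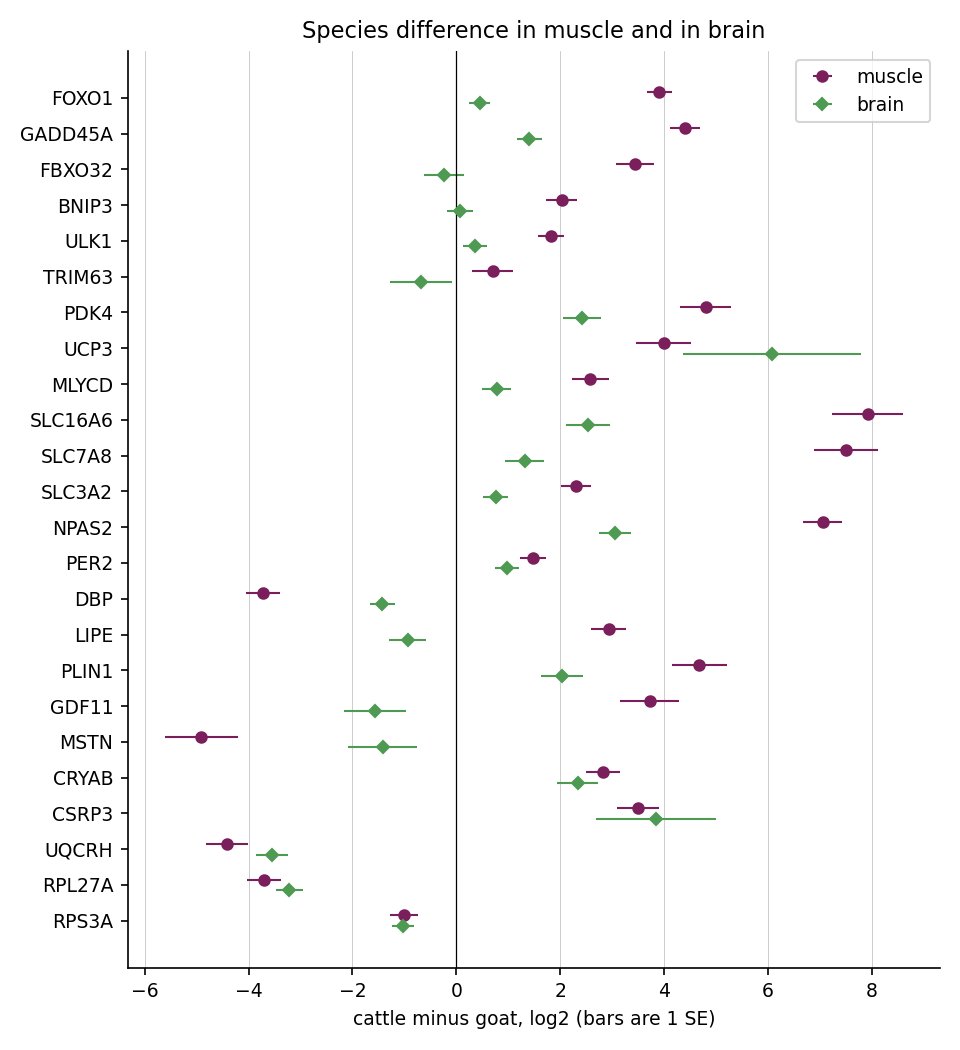
Log2 difference of cattle minus goat (x axis) in muscle and in brain for named genes (y axis), with bars of 1 SE. FOXO1, FBXO32, BNIP3 and ULK1 lie between -0.24 and 0.45 in brain and between 1.82 and 3.91 in muscle, while RPL27A and RPS3A lie close together in both tissues. GADD45A, of the same list as FOXO1, is also higher in cattle brain (1.41), and TRIM63 was not called in muscle.

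Carriers, clock genes and growth factors each held a few wide differences. Among 17 tested carriers of glucose, lactate and amino acids, 3 were higher in cattle and 0 higher in goat (4 and 1 without goat C), a share of calls towards cattle near the 17.5% of all tested genes. SLC7A8 (LAT2), a light chain that exchanges neutral amino acids (chr10:21683779-21737239), was at 93.7, 228 and 214 RPKM in cattle and 1.08, 0.450 and 1.44 in goat, a log2 difference of 7.50 ± 0.61 (adjusted p = 0.00013) against 1.32 in brain. SLC3A2 (CD98), the heavy chain it pairs with, was at 60.9, 88.9 and 119 RPKM against 16.2, 16.8 and 21.1, a log2 difference of 2.31 ± 0.29 (adjusted p = 0.00062). Both chains have like Length, and both passed the interaction (6.24 and 1.60). SLC25A33, a mitochondrial pyrimidine nucleotide carrier (Length ratio 0.659), differed by 3.12 ± 0.65, with cattle C at 86.3 RPKM above cattle A and B at 19.4 and 29.0.

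Of 15 clock genes tested, 4 were higher in cattle and 1 higher in goat, against 17.5% and 20% of all tested genes. NPAS2, a partner of BMAL1 in the activating complex of the clock (Length ratio 0.729), was at 61.7, 46.3 and 70.0 RPKM in cattle and 0.611, 0.420 and 0.304 in goat, a log2 difference of 7.05 ± 0.37 (adjusted p = 4.3e-05) against 3.05 in brain. PER2, a repressor of the clock (Length ratio 1.32), was at 8.10 to 9.54 RPKM against 2.57 to 4.20. DBP, an output gene of the clock (Length ratio 1.76), was lower in cattle at 1.89, 1.10 and 1.68 RPKM against 18.2, 16.4 and 27.0, a log2 difference of -3.72 ± 0.33 (adjusted p = 0.000183); 21.4% of its cattle and 14.2% of its goat exonic bases are shared with another gene. Sheep muscle was near goat for NPAS2 (0.529 RPKM) and DBP (11.3 RPKM) and nearer cattle for PER2 (7.27 RPKM).

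The growth axis had 5 members higher in cattle and 3 higher in goat among 18 tested (4 and 4 without goat C). The shares of all tested genes were 17.5% and 20%. MSTN (Length ratio 2.66) was at 0.465, 0.758 and 0.0966 RPKM in cattle and 19.3, 12.8 and 7.80 in goat, a log2 difference of -4.91 ± 0.70 (adjusted p = 0.00112), and sheep muscle averaged 8.33. GDF11, the closest relative of myostatin, went the other way at 15.6, 7.74 and 8.89 RPKM in cattle and 1.08, 1.09 and 0.222 in goat, with a log2 difference of 3.72 ± 0.57 in muscle and -1.56 in brain. IGF2, insulin-like growth factor 2 (Length ratio 5.79), was at 40.5, 49.6 and 35.6 RPKM against 14.5, 16.7 and 10. IGFBP4, a binding protein that restrains IGF signalling (Length ratio 2.97), was lower in cattle at 7.46, 10.9 and 10 RPKM against 24.8, 25.1 and 37.9, and differed by -1.63 in muscle and -1.93 in brain; without length correction the muscle call was lost (-0.35, adjusted p = 0.258).

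Of 16 tested genes of fat storage, 7 were called higher in cattle and 0 in goat (6 and 0 without goat C), against 17.5% and 20% of all tested genes. The median log2 difference was 0.67 in muscle and 0.47 in brain, and of 3 members of like Length 0 were called. PLIN1, the coat protein of the fat cell's lipid droplet (Length ratio 0.667), was at 1.96, 6.73 and 6.4 RPKM in cattle and 0.235, 0.167 and 0.187 in goat, a log2 difference of 4.67 ± 0.53 (adjusted p = 0.000423). LIPE, hormone-sensitive lipase (Length ratio 1.42), was at 27.2, 20 and 34.6 against 2.60, 5.13 and 3.0, with a log2 difference of 2.93 ± 0.34 in muscle and -0.94 in brain. PLIN3, a droplet coat protein of many cell types (Length ratio 1.42), and AGPAT2, an acyltransferase of triglyceride synthesis (Length ratio 1.71), differed by 1.64 ± 0.31 and 1.40 ± 0.26. ADIPOQ, the hormone adiponectin of fat cells, was chosen after its values were seen. It varied within cattle at 1.80, 24.4 and 14.4 RPKM, against 0.136 to 0.709 in goat, and its Length ratio is 0.201; its call was lost without length correction (adjusted p = 0.0593). The list, which also holds genes of other cell types such as PLIN3, summed to 360.7, 278.4 and 335.2 RPKM in cattle and 134.2, 172.9 and 121.8 in goat. Cattle A had the highest sum but the lowest cattle level of PLIN1 and ADIPOQ. The number of fat cells in each sample was not tested.

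Glycolysis had 5 members higher in cattle and 4 higher in goat of 16 tested, and glycogen metabolism 4 and 0 of 11. The shares of all tested genes were 17.5% and 20%. Of the 3 glycogen members of like Length 0 were called. ALDOA, the muscle aldolase (Length ratio 0.434), was at 7777, 20429 and 18193 RPKM in cattle and 2504, 2606 and 4963 in goat, a log2 difference of 2.20 ± 0.50 (adjusted p = 0.00792). PFKM, the muscle phosphofructokinase (Length ratio 0.797), was at 586, 1520.1 and 1159.7 against 410.3, 402 and 371, and PYGM, the muscle glycogen phosphorylase (Length ratio 0.595), at 2132, 3675 and 2839 against 919, 1022 and 942. Cattle A was the lowest cattle library for these 3 genes and still lay above all goat libraries. Without length correction the calls of all 3 were lost (ALDOA 0.71, adjusted p = 0.238; PFKM 0.83, 0.0959; PYGM 0.53, 0.188). PKM, pyruvate kinase (Length ratio 0.644), differed by 2.16 ± 0.40 and shares 45.6% of its goat exonic bases with another gene. EPM2A (laforin), a glycogen phosphatase (Length ratio 0.638), was at 21.0 to 33.3 RPKM against 8.21 to 15.3, and differed by 1.32 in muscle and -0.07 in brain, with the muscle call lost without length correction (0.38, adjusted p = 0.276). HK1, a hexokinase of most tissues (Length ratio 1.90, 12.1% of its cattle exonic bases shared), was higher in goat at 11.1, 12.4 and 11.0 RPKM against 2.82, 2.41 and 2.46, a log2 difference of -2.16 ± 0.19 (adjusted p = 0.000168).

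Some fibre-type genes, such as MYH7 and MYH1, varied widely between libraries of the same species. Of 14 slow-fibre genes 6 were higher in cattle and 1 in goat (5 and 1 without goat C), and of 15 fast-fibre genes 1 was higher in cattle and 4 in goat (3 and 3 without goat C). The shares of all tested genes were 17.5% and 20%. The slow myosin heavy chain MYH7 was at 4311, 1754 and 1978 RPKM in cattle and 1607, 1377 and 259 in goat, and was not called (log2 difference 1.31 ± 0.67, adjusted p = 0.141). The fast chain MYH1 was at 423, 6099.8 and 2646 in cattle and 3459, 3644 and 5300.5 in goat, and MYH2, the fast oxidative chain, at 3266, 1737 and 1648 against 1804, 1164 and 2171; neither was called (adjusted p = 0.673 and 0.48). Cattle A was thus the library richest in slow myosin and poorest in MYH1, and goat C the poorest in slow myosin.

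MYH4, the fastest heavy chain, was the exception among adult myosins: it was at 0.0290, 0.527 and 0.168 RPKM in cattle and 96.2, 94.6 and 15.6 in goat, a log2 difference of -8.13 ± 1.16 (adjusted p = 0.00109), with 123 RPKM in sheep and the same doubt over close copies. MYL11, the fast regulatory light chain (Length ratio 2.35), was at 5645, 8263 and 7759 against 16779, 15723 and 48317 RPKM, a log2 difference of -1.90 ± 0.51 (adjusted p = 0.0157) that missed the threshold without cattle C (adjusted p = 0.0574), without length correction (-0.94, adjusted p = 0.134) and in the 12-library fit (adjusted p = 0.119). The slow light chains pulled apart. MYL2 (Length ratio 0.39) was at 14455, 3763 and 8035 RPKM in cattle and 2390.4, 2745 and 706 in goat (log2 difference 2.17 ± 0.64, adjusted p = 0.0238), and the call was lost without cattle A (1.52, adjusted p = 0.107), cattle C (adjusted p = 0.0579) or goat A (adjusted p = 0.0528). Without length correction the MYL2 difference was 0.49 (adjusted p = 0.544), and the call was also lost with library totals (0.0526) and in the 12-library fit (0.0751). MYL3 (Length ratio 3.38) was at 153, 213 and 242 against 2867, 2694 and 133, overlapped because of goat C, and lost its call without cattle A (adjusted p = 0.0753), cattle B (0.0685), cattle C (0.0649) or goat A (0.0553), and also without length correction (-1.80, adjusted p = 0.128), with limma-voom (0.0947) and with the replicate block (0.0907). ACTC1, the cardiac actin that adult skeletal muscle expresses weakly, ran from 64.2 to 628 RPKM in cattle and from 11.5 to 422 in goat and was not called (adjusted p = 0.872). UNC45B, the chaperone that folds myosin (Length ratio 0.712), was higher in goat at 109, 123 and 129 RPKM against 49.4, 68.2 and 46.5, with a log2 difference of -1.14 ± 0.24 in muscle.

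**Figure D4:**
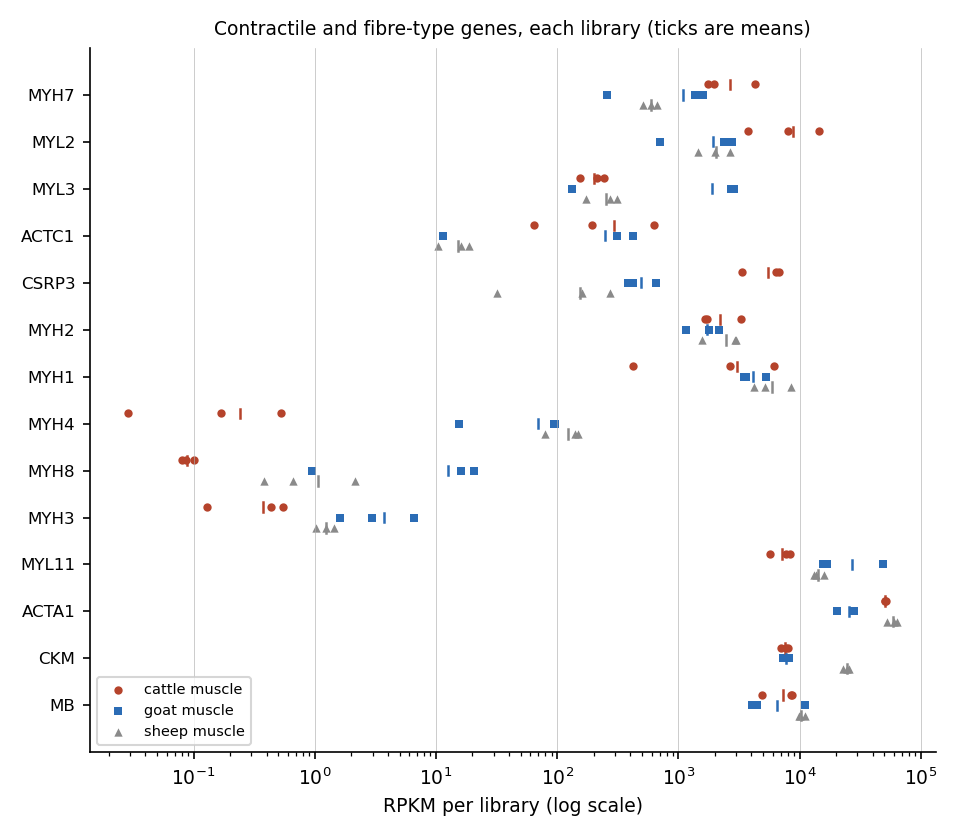
Level (x axis, RPKM per library, log scale) of contractile and fibre-type genes in each muscle library of cattle, goat and sheep, with ticks for the means. One cattle library (A) is high in MYH7 and MYL2 and low in MYH1, one goat library (C) is low in MYH7, MYL2 and MYL3, and MYH4 is below 1 RPKM in all 3 cattle libraries.

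Of 25 tested genes of the Z-disc and its links to the membrane, 11 were called higher in cattle and 1 in goat (14 and 2 without goat C), against 17.5% and 20% of all tested genes. Among the 9 of like Length the calls were 3 and 0. The median log2 difference was 1.34 in muscle and 0.67 in brain. PDLIM3 (ALP), a PDZ-LIM protein that binds alpha-actinin, was at 4837, 4298 and 3860.5 RPKM in cattle and 989, 1062 and 1178 in goat, a log2 difference of 2.01 ± 0.28 (adjusted p = 0.00103). LDB3 (ZASP), another PDZ-LIM protein of the Z-disc, was at 1542, 1809 and 1987 against 676, 520.3 and 501, a log2 difference of 1.65 ± 0.30 (adjusted p = 0.00282). Both have like Length and were named for their high level. TRIM54 (MuRF3), a microtubule-binding ubiquitin ligase of the sarcomere, was at 591, 475 and 656 against 136, 133 and 239 RPKM, also at like Length.

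CSRP3 (muscle LIM protein), a stretch sensor of the Z-disc (Length ratio 1.35), was at 6364, 3344 and 6733 RPKM in cattle and 423, 383 and 659 in goat, a log2 difference of 3.49 ± 0.41 (adjusted p = 0.000476). DES (desmin), the intermediate filament that ties Z-discs together (Length ratio 0.386), was at 6064, 3526 and 5634 against 1443, 1409 and 1472. MYOZ2, a calcineurin-binding Z-disc protein of slow fibres (Length ratio 0.385), was at 2192, 620.4 and 1298 against 286, 239 and 108, highest in cattle A. Further members were PDLIM5 (Length ratio 0.446), which differed by 2.54 in muscle and -1.50 in brain, and ITGA7, the laminin receptor of muscle (Length ratio 0.576), which differed by 1.66 in muscle and 1.99 in brain and shares 22.8% of its goat exonic bases. LMCD1, a LIM protein (Length ratio 0.407), was at 719.7, 702 and 815 RPKM against 71.4, 156 and 28.9. Without length correction 4 of these calls were lost: DES (0.14, adjusted p = 0.741), MYOZ2 (1.0, 0.148), ITGA7 (0.56, 0.0635) and LMCD1 (1.5, 0.0533).

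Thin filament genes had 1 member higher in cattle and 4 in goat of 17 (2 and 2 without goat C), near the 20% of all tested genes called higher in goat. Thick filament genes had 2 and 6 of 18 (3 and 7 without goat C), with a median log2 difference of -0.03 and 9 members on each side of 0. TMOD4, which caps the pointed ends of thin filaments, was at 1029, 1102 and 1009.5 RPKM in cattle and 1621, 1556 and 3107 in goat, a log2 difference of -1.0 ± 0.33 (adjusted p = 0.0382) against 1.67 in brain. That muscle call was lost without cattle A (adjusted p = 0.0715), cattle B (0.0856), cattle C (0.119) or goat C (-0.60), and with limma-voom (-0.94), the 12-library fit (-0.94) and the replicate block (-0.92). ACTA1 (Length ratio 2.07) had a log2 difference of 1.0 ± 0.35 that fell just short of 2-fold, and without goat C it was called (1.08). Of the 12 genes of like Length named for their high level, 5 kept their call without any single library: BNIP3, LDB3, PDLIM3, RPS15A and TRIM54.

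Of 17 tested heat shock proteins and chaperones, 8 were called higher in cattle and 1 in goat, against 17.5% and 20% of all tested genes, and among the 6 of like Length the calls were 2 and 0. CRYAB (alpha-B-crystallin), which guards desmin and titin (Length ratio 0.321), was at 3403, 2855 and 3934 RPKM in cattle and 427, 628 and 389 in goat, a log2 difference of 2.82 ± 0.33 (adjusted p = 0.00046) that fell to 0.87 and lost its call without length correction. HSPB6, a small heat shock protein of muscle (Length ratio 3.03), was at 3042, 2209 and 3380.1 against 729, 694 and 773. BAG3, the co-chaperone that clears damaged Z-disc proteins, was at 239, 324 and 289 against 77.5, 111 and 97.9 at like Length, a log2 difference of 1.57 ± 0.25 (adjusted p = 0.00155). All 3 were also higher in cattle brain, by 2.34, 1.75 and 1.88. HSPE1, the mitochondrial co-chaperonin (Length ratio 3.11), was the member higher in goat, at 98.8, 84.9 and 122 against 699, 874 and 911, with 24.5% of its cattle exonic bases shared.

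Immediate early genes, which rise within minutes of stress, injury or exercise, had 5 members higher in cattle and 1 in goat among 11 tested. The shares of all tested genes were 17.5% and 20%. Of the 2 members of like Length 0 were called. KLF4 (Length ratio 0.499), a zinc finger factor, was at 18.8, 24.6 and 29.2 RPKM in cattle and 2.15, 2.91 and 3.54 in goat, a log2 difference of 3.08 ± 0.28 (adjusted p = 0.000183). NR4A3, an orphan nuclear receptor induced by exercise (Length ratio 0.576), was at 2.54, 8.48 and 3.70 against 0.174, 0.601 and 0.383, and FOSL2, an AP-1 subunit (Length ratio 3.52), at 23.3, 24.2 and 29.9 against 7.11, 7.74 and 4.22. DUSP1, a phosphatase that shuts off MAP kinases (Length ratio 0.498), was at 169, 136 and 228 against 28.4, 68.2 and 15.5, and lost its call without length correction (0.92, adjusted p = 0.173). The interval between death and freezing is not given in the labels, and its part was not tested.

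Nuclear genes of the respiratory chain and genes of the cytosolic ribosome stood higher in goat, and much of this was found in brain as well. Mitochondrially encoded genes were left out of the pairing. They took 9.67% to 10.6% of counts in cattle muscle and 1.5% to 3.16% in goat muscle. Of all tested genes 17.5% were called higher in cattle and 20% higher in goat. Of 33 complex I genes 2 were called higher in cattle and 18 higher in goat (4 and 16 without goat C), with a median log2 difference of -1.33 in muscle and -0.89 in brain. Of 29 genes of complexes III, IV and V, 1 was higher in cattle and 21 in goat (1 and 19 without goat C), with medians of -1.80 and -0.94. Of 61 cytosolic ribosomal protein genes 2 were higher in cattle and 37 in goat (3 and 27 without goat C), with medians of -1.17 and -1.07, and 0 passed the interaction either way. Only 2, 4 and 17 of these genes have like Length, and of those 0, 1 and 6 were called higher in goat and 0 higher in cattle. The muscle medians of these like-Length members were -0.12, -0.36 and -0.64, nearer to no difference than those of the whole lists. The median Length ratios of the whole lists were 1.63, 1.74 and 1.43, the side on which all genes together lean to goat. Without goat C the ribosomal genes RPL14 (-0.82), RPL26 (-0.76), RPL27 (-0.80) and RPS3A (-0.80), all of like Length, fell below 2-fold and lost their calls. These genes also lost their calls without cattle B.

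Among the members with unlike Length, UQCRH of complex III (Length ratio 3.97) was at 75.4, 36.9 and 83.0 RPKM in cattle and 1062, 1242 and 1855 in goat, and differed by -4.41 in muscle and -3.54 in brain. NDUFS4 of complex I (Length ratio 3.77) differed by -3.08 and -2.57. NDUFC2 of complex I (Length ratio 4.73) differed by -2.81 and -1.67, and ATP5F1C, a subunit of ATP synthase (Length ratio 1.63, 29.0% of its cattle exonic bases shared), by -2.26 and -0.89; both passed the interaction at -1.09 and -1.31. Without length correction the NDUFC2 difference in muscle was -0.87 and not called. UQCRB of complex III was the member called in favour of cattle, at 919.7, 601 and 858 RPKM against 76.1, 92.3 and 176. Its Length ratio is 0.0895, the log2 difference was 2.79 in both tissues, and without length correction the sign turned to -0.98.

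Ribosomal protein genes gave the same picture. RPS15A (Length ratio 1.17) was at 540.2, 525 and 682 RPKM in cattle and 1251, 1216 and 1819 in goat, a log2 difference of -1.29 ± 0.26 (adjusted p = 0.00447) against -1.02 in brain. RPS14 (Length ratio 5.31), RPL27A (5.43) and RPL34 (3.95) differed by -3.32, -3.70 and -3.54 in muscle and by -3.60, -3.21 and -3.36 in brain. RPS3A, at a Length ratio of 1.03, differed by -1.01 ± 0.27 in muscle and -1.03 in brain, and its muscle call was lost without cattle A (-0.95), cattle B (adjusted p = 0.0505) or goat C (-0.80). That call was also lost in the 12-library fit (-0.953) and with the replicate block (-0.996).

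A few wide differences belong to genes whose exons lie inside another gene of the same annotation. TPI1, triosephosphate isomerase of glycolysis (Length ratio 1.99), was at 9.09, 15.8 and 15.9 RPKM in cattle and 1621, 1422 and 1734 in goat; 63.6% of its cattle exonic bases lie in another gene, and the log2 difference was -6.87 in muscle and -6.80 in brain. COX6A2, the muscle form of a cytochrome oxidase subunit (Length ratio 3.56), had 2 counts over all cattle muscle libraries against 1233, 1331 and 3193 RPKM in goat, with 66.9% of its cattle exonic bases shared. RPL29 (Length ratio 1.31) was at 466, 416 and 576 RPKM in cattle and had 0 counts in goat muscle, where 100% of its exonic bases are shared. Without genes sharing at least 10% of their exonic bases, 1931 genes were called higher in cattle and 2135 higher in goat.

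Of 14 T and B cell genes 10 were called higher in goat and 1 in cattle (10 and 0 without goat C), against 20% and 17.5% of all tested genes, with a median log2 difference of -2.72 in muscle and -1.51 in brain. Only 1 of the 14 has like Length and the median Length ratio is 1.84, the side on which all genes together lean to goat. All were low: the 14 together reached 8.23, 25.0 and 8.11 RPKM in cattle and 28.6, 34.9 and 41.9 in goat. CD3E, a chain of the T cell receptor complex (Length ratio 4.34), was at 0.288, 0.701 and 0.597 against 5.80, 7.24 and 10.1, and CD8A, of cytotoxic T cells (Length ratio 3.06), at 0.190 to 0.344 against 1.98 to 2.35. The species difference in CD3E was wider in brain (-6.88 against -3.85 in muscle).

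The interferon and antigen presentation list had 7 members higher in goat and 1 in cattle among 19 tested (6 and 1 without goat C), and 11 were not called. Of all tested genes 20% were called higher in goat and 17.5% higher in cattle. The list summed to 315.4, 354.4 and 299.4 RPKM in cattle and 349.5, 316.2 and 490.2 in goat, which overlap. PSMB9, an immunoproteasome subunit of like Length, was at 7.94, 4.75 and 4.70 RPKM in cattle and 26.2, 17.8 and 40.4 in goat, a log2 difference of -2.28 ± 0.38 (adjusted p = 0.00201). IFI44, an interferon-induced gene of like Length, was at 1.09, 1.26 and 0.497 against 5.30, 6.06 and 7.50, with a log2 difference of -2.72 in muscle and -0.37 in brain. TAP1, the peptide transporter of antigen presentation (Length ratio 1.39), and IRF1, a transcription factor of the response (Length ratio 3.14), differed by -1.76 ± 0.24 and -2.15 ± 0.34, the latter with its call lost without length correction (-0.79, adjusted p = 0.073). C3, the central complement protein (Length ratio 1.21), was at 1.31, 1.89 and 0.814 RPKM in cattle and 25.0, 27.9 and 19.5 in goat, a log2 difference of -4.17 ± 0.35 (adjusted p = 0.000149).

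Vessel, nerve and matrix markers were divided. Endothelial genes had 3 higher in cattle and 5 in goat of 15 tested, and 2 and 1 without goat C. The shares of all tested genes were 17.5% and 20%. TIE1, an endothelial receptor of like Length, was at 2.91, 4.03 and 3.32 against 6.72, 7.80 and 10.5, and KDR, the main VEGF receptor, at 3.32, 4.52 and 3.42 against 6.21, 7.37 and 11.8, a call that was lost without goat C (log2 difference -0.85 in place of -1.17). ENG (endoglin, Length ratio 0.472) went the other way, at 61.5, 63.7 and 48.7 against 10, 10.2 and 20.7, and lost its call without length correction (0.72, adjusted p = 0.0816). Among 9 Schwann cell and nerve genes 6 were higher in goat and 0 in cattle (5 and 0 without goat C), against 20% and 17.5% of all tested genes. The nerve genes higher in goat included PRX, periaxin of the myelin sheath (Length ratio 0.579), at 1.02, 0.592 and 0.199 against 2.33, 2.36 and 2.64 RPKM, a log2 difference of -2.02 ± 0.50.

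Fibroblast and matrix genes had 8 of 27 higher in cattle and 1 in goat (7 and 1 without goat C), against 17.5% and 20% of all tested genes. Among the 10 of like Length, 0 were called higher in cattle and 1 in goat. The macrophage scavenger receptor CD163 (Length ratio 0.535) was the 1 macrophage marker of 8 called, at 5.34, 7.48 and 5.96 RPKM in cattle and 1.09, 0.867 and 2.20 in goat; without goat C 2 of the 8 were, and without length correction CD163 was not called (0.99). CNN1, calponin of smooth muscle (Length ratio 0.557), was at 18.9, 27.3 and 23.5 against 1.69, 2.26 and 2.38, a log2 difference of 3.46 ± 0.26 (adjusted p = 0.000103). Of 3 tested cardiac and 5 tested neuron markers 0 were called. The remaining lists had few calls or calls in both directions, to be read beside the same 17.5% and 20%. Myogenic regulators had 6 higher in cattle and 1 in goat of 18 (5 and 1 without goat C), high-energy phosphate and purine genes 4 and 1 of 11, the mitochondrial ribosome 2 and 7 of 30 (2 and 6 without goat C), antioxidant genes 4 and 6 of 17, amino acid breakdown 4 and 5 of 22 (5 and 4 of 23 without goat C), and the proteasome 6 and 5 of 31 (7 and 2 without goat C). Excitation-contraction coupling had 3 and 3 of 18 (2 and 3 without goat C), the citrate cycle 2 and 2 of 20, complement 2 and 3 of 14 (4 and 3 without goat C), smooth muscle 2 and 2 of 11 (3 and 2 without goat C), and calpains and cathepsins 2 and 1 of 13 (2 and 2 without goat C). Over the 40 lists, 680 of 851 listed symbols were paired and 661 of them tested. What part the cell makeup, the muscle taken or the state of goat C had in any list was not tested.

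**Figure D5:**
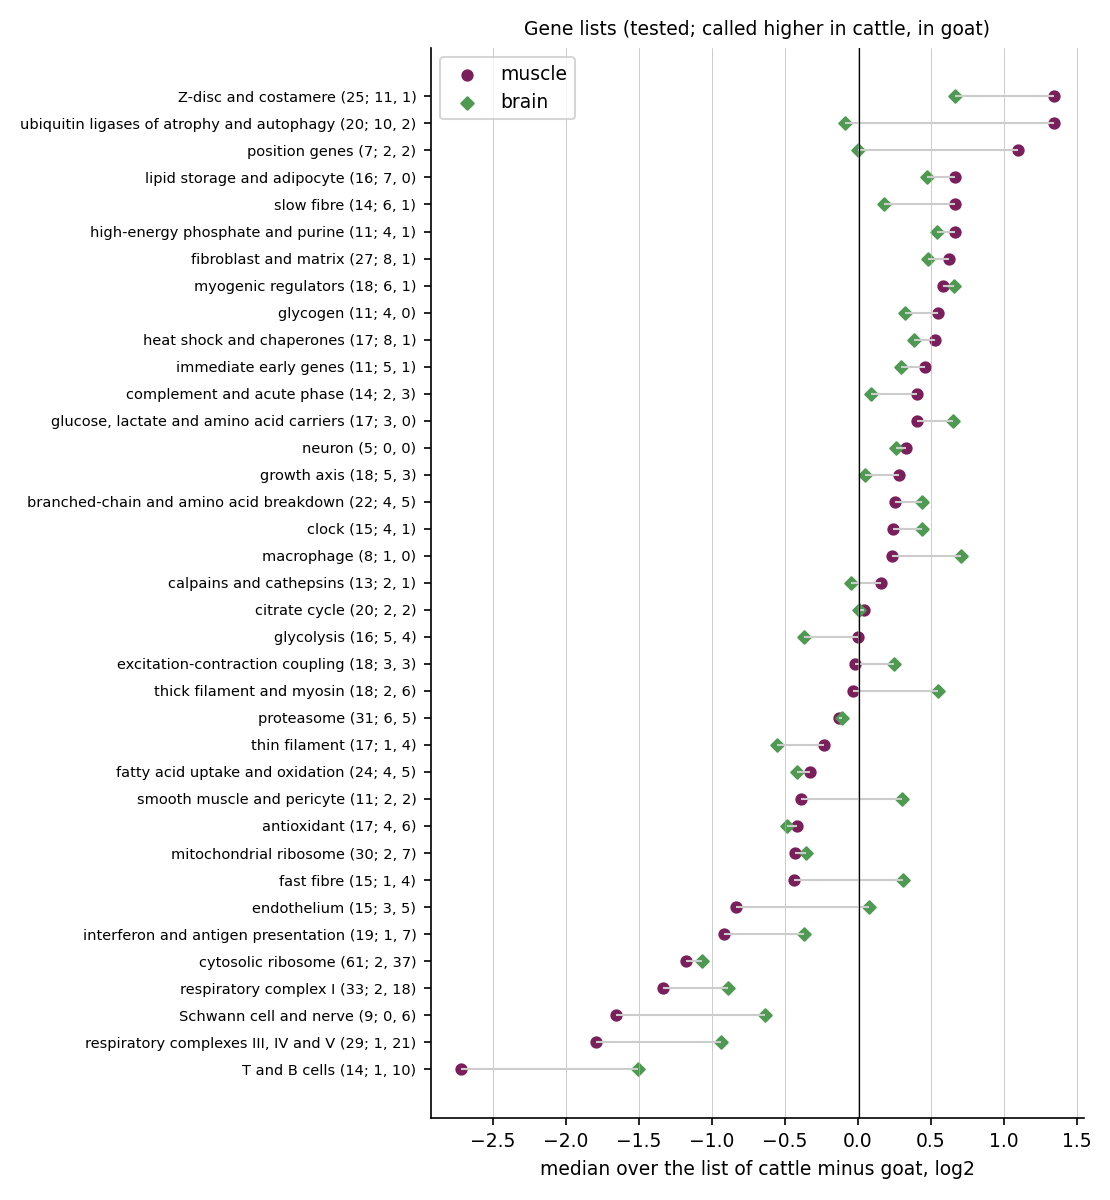
Median log2 difference of cattle minus goat (x axis) over the tested members of each gene list in muscle and in brain, with the number tested, called higher in cattle and called higher in goat in muscle beside each name. Protein breakdown and autophagy stands at 1.34 in muscle and -0.09 in brain, while the cytosolic ribosome stands at -1.17 and -1.07.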

How the data were processed

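Bulk RNA-seq of polyadenylated RNA was measured in 6 muscle libraries, with 6 brain and 3 sheep muscle libraries beside them. The deposited values are whole-number counts per gene made by the authors, with the exonic Length of each gene, per the file headers. The submitters' processing notes name Trimmomatic 0.39, STAR 2.7.6, featureCounts and ARS-UCD1.2. No goat or sheep build, strand setting or rule for reads with several hits was found in the labels or headers.

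From these counts, cattle and goat genes were paired by exon lengths in 3 passes (10841, 3859 and 1278 pairs). In the first pass, 98.31% of 11027 candidate pairs kept gene order, and only those were used. The later passes accepted looser matches of exon lengths. Among the genes named above, FOXO1, GADD45A, CSRP3, HSPB6, BAG3, DBP, FBXO40 and others were second-pass pairs. CRYAB, COX6A2 and others were third-pass pairs. Symbols were taken by position from a RefSeq table of the later assembly ARS-UCD2.0, and 13066 pairs had one. Of 20246 cattle genes named by position, 7994 had an identical start or end in that table. A few symbols may therefore name a neighbour. Genes left unpaired, such as COL3A1, were not analysed here. Pairs were filtered with filterByExpr and tested with edgeR 4.0.16 (R 4.3.3) by a robust quasi-likelihood fit with TMM factors and an offset of library size and Length, using the muscle libraries only. The interaction used 12 libraries. Adjusted p-values are Benjamini-Hochberg over all tested genes, and SE was taken from the F statistic. The scripts were tested on simulated counts.

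The members and the 40 gene lists were chosen with earlier results of these data known. Named genes were the 10 of greatest fold per direction among called, first-pass, non-overlapping genes of like Length above a floor of log2 CPM 4 in whichever species was higher, the 6 of highest level per direction, and up to 4 members per list by adjusted p with up to 2 called against the list's median. Not every gene the rule allows is described, and 1 gene named by fold in favour of cattle is not reported here. With 3 against 3 libraries an exact permutation test of a single gene cannot go below 0.1, so none was used. Alternatives were RLE scaling, library totals, no filter, DESeq2 1.42.0, limma-voom (limma 3.58.1), no length correction, the 12-library fit, first-pass pairs, the replicate block and each library left out. Scaling on genes of like Length and the limit on shared exons were added after the data were seen.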

Additional observations from a re-analysis of the deposited data

Results flagged for a closer look

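For 53 of the genes named above, the difference between cattle and goat was not the same in muscle as in brain: the interaction of species with tissue in the 12 libraries had a Benjamini-Hochberg adjusted p below 0.05 by edgeR's quasi-likelihood test. The values here are interactions on the log2 scale, the cattle minus goat difference in muscle less that in brain. They share the same libraries and were picked from genes with known differences, so they are values to look at again and not independent of each other.

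Interactions towards cattle muscle were greatest for the carrier SLC7A8 and for GREB1, in the order SLC7A8 6.24, GREB1 6.07, SLC16A6 5.4, GDF11 5.30, SYNJ2 4.39, ARID5B 4.10, RIN1 4.07, PDLIM5 4.06, NPAS2 4.03 and LIPE 3.91. Genes of the FOXO programme and of fuel use followed, with lymphocyte and immediate early genes among them, at FBXO32 3.70, FOXO1 3.50, NR4A3 3.44, CD3E 3.08, GADD45A 3.04, PLIN1 2.68, GLUL 2.44, PDK4 2.44, AGPAT2 2.03 and BNIP3 2.02. CD3E was lower in cattle than in goat in both tissues (-3.85 in muscle and -6.88 in brain). Its value is positive only through the wider difference in brain, where cattle averaged 0.0474 RPKM. The remaining positive values were DUSP1 1.95, MLYCD 1.85, MRRF 1.78, FOSL2 1.75, PDLIM3 1.68, SLC3A2 1.60, PLIN3 1.53, CD163 1.52, ULK1 1.51 and EPM2A 1.45.

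Towards goat muscle, the myosin heavy chains were at MYH4 -10.33, MYH8 -10.31 and MYH3 -3.56, where close copies make the counts uncertain. Each of these values is wider than the difference in muscle alone. Other genes with wide values were CD8A -3.84, MSTN -3.48, SRR -3.18, CFAP70 -2.85, ITGB1BP2 -2.83, RAPGEF4 -2.75, GPC3 -2.62, TMOD4 -2.61, IFI44 -2.31 and DBP -2.24. The smaller values were UNC45B -2.21, PRX -1.84, HK1 -1.68, C3 -1.66, KYAT1 -1.58, ATP5F1C -1.31, ECI1 -1.24, TIE1 -1.19, NDUFC2 -1.09 and HSPE1 -1.09.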

How the results depend on the processing

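The counts of called genes stayed within 1.5 times of those reported under all alternatives run. Leaving out each library in turn gave 1755 to 2313 genes higher in cattle and 2018 to 2447 higher in goat, and for genes of like Length 445 to 615 and 411 to 542. DESeq2 gave 2185 and 2488, limma-voom 2153 and 2303, and no length correction 2112 and 2324, but the last kept 2885 of 4464 calls and turned the sign of 375. Without length correction UQCRB reversed (-0.98), and 22 of the genes examined by name lost their calls, most of them with unlike Length. The share of calls that were higher in cattle fell from 46.7% to 33.1% with library totals and to 38.6% with TMM factors from genes of like Length (genes of like Length: 52% to 37.1% and 43.1%); without length correction it was 37.9% among genes of like Length. The causes of these shifts were not tested. Of 115 genes examined by name, 108 were called and 78 of these kept the call under every setting. The genes named by fold that passed the interaction in the direction of muscle numbered 13 to 15 when single libraries were left out, against 14.

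The letters A, B and C are shared between species and between tissues, but nothing says that they pair the samples. Between cattle and goat muscle, deviations from the group means correlated at 0.055, 0.05 and 0.129 for the same letter and at -0.201 to 0.118 for other letters. The interaction took the 12 libraries as independent, and a pairing of muscle with brain within a species was not tested. With the letter as a replicate block, 2191 genes were called higher in cattle and 2294 higher in goat, and 583 and 482 among genes of like Length.

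Goat libraries were shallower than cattle libraries, so genes low in goat rest on few counts, such as RIN1 with 78 counts over 3 goat libraries.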
